A study of Mus musculus with 6 samples.

Results

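Potassium channel genes, the genes for the pore-forming subunits of potassium channels and for the subunits that travel with them, were examined for H3K4me3 at their transcription start sites in STHdh cells. They were taken as the protein-coding genes of GENCODE release M21 whose symbol is Kcn followed by the letter or letters of a family and a number, which gave 93 genes of 21911 in all, in 20 families. The rule used the names of the genes and no measured value. STHdh cells are conditionally immortalized murine striatal progenitor cells of strain C57BL/6, and each genotype is represented by 1 line. STHdhQ7 carries wild-type huntingtin, and STHdhQ111 is homozygous for a knock-in of mutant huntingtin, the protein altered in Huntington's Disease.

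All 6 conditions were held in serum-free medium for 24 hours, so the controls were starved of serum too. Q7SST is STHdhQ7 with vehicle and Q111SST is STHdhQ111 with vehicle. The other 4 lists came from STHdhQ111 given a compound at 10 uM, namely cyproheptadine (an antagonist of histamine and serotonin receptors), loxapine (an antipsychotic), diacylglycerol kinase inhibitor II (DKI) or meclizine (an antihistamine). The order Q7SST, Q111SST, cyproheptadine, loxapine, DKI and meclizine is kept wherever 6 values are given. There was 1 peak list per condition, so no test between conditions was possible, and each difference given below describes a pair of lists rather than a pair of conditions.

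Potassium channels let potassium leave the cell along its gradient, which sets the resting potential and ends the action potential. Their genes fall into classes by how the pore opens, namely by voltage, by internal calcium or sodium, by inward rectification, or as a leak through pores with a tandem domain. Striatal projection neurons are known for a strong inward rectifier current that keeps them silent between bursts of input. H3K4me3 is a histone mark that sits around active and poised starts, most of all at starts rich in the dinucleotide CpG, and a mark at a start is not a measure of transcript level. In a peak list from a culture, a mark in few cells and a weak mark in all cells cannot be told apart.

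Marked genes were those with a peak at most 1 kb from an annotated start. The strength of a gene was the percentile of its strongest such peak among all peaks of the same list, by the deposited score, so that 0 is the weak end and 100 the strong end of that list. The width was the number of base pairs in all peaks within that window. Read depth behind each list is unknown, and the lists held 30758 peaks (DKI) to 45564 peaks (loxapine). As a check of the labelled cell type, progenitor markers were marked for 9, 7, 6, 7, 7 and 7 genes of 10, and markers of mature striatal neurons for 5, 3, 1, 2, 1 and 3 genes of 9. Drd1, Drd2, Rbfox3 and Snap25, which define mature neurons, were unmarked in every list. Markers of astrocytes, oligodendrocytes and microglia were marked for 2, 3, 1, 2, 1 and 3 genes of 8.

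Before the values, the promoters of 6 members are shown because they carry the main contrasts of the data. Kcnab2 and Kcna7 had the strongest peaks, and Kcnf1 and Kcnk12 were marked in Q7SST and in no list of mutant cells. Kcnk5 and Kcnn4 were marked in Q111SST and not in Q7SST, though with a window of 5 kb Kcnn4 was marked in both. Each promoter runs 5′ to 3′ on the strand of the gene. It spans 250 bases before to 50 bases after the start in RefSeq (GRCm38.p6), and the capitals mark each CpG.
Kcnab2: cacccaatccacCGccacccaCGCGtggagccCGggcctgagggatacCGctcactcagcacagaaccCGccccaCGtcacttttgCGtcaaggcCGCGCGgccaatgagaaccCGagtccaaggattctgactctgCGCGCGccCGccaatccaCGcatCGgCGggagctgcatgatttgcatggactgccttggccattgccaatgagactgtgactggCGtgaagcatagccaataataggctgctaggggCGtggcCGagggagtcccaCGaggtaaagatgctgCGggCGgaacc
Kcna7: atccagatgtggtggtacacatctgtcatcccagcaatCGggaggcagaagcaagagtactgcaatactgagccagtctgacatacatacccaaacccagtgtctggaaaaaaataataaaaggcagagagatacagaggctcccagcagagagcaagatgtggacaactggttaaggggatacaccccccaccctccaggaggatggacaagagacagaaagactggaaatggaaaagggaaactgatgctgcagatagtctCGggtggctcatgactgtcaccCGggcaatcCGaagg
Kcnf1: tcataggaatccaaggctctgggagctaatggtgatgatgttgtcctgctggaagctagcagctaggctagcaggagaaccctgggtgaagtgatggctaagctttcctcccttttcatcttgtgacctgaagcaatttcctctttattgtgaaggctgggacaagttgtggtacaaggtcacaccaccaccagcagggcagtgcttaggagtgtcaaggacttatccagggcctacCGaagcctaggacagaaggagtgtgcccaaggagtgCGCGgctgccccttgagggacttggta
Kcnk12: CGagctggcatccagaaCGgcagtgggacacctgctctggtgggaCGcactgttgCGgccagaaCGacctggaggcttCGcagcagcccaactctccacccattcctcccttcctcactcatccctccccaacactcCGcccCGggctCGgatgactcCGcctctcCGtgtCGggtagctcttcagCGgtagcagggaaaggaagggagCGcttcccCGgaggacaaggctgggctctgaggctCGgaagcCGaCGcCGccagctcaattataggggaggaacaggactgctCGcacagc
Kcnk5: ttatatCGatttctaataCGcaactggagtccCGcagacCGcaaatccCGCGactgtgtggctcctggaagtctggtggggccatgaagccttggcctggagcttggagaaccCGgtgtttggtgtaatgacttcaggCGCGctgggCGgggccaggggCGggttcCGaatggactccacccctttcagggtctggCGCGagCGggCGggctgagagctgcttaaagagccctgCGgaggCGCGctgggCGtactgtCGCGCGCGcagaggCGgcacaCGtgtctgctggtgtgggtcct
Kcnn4: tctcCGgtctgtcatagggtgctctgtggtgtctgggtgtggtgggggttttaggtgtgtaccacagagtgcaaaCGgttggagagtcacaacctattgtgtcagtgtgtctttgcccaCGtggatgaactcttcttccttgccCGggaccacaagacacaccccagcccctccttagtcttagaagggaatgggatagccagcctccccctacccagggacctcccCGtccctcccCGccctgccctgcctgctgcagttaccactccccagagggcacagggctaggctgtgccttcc
The Kcnab2 window (chr4:152477500-152477799, minus strand) had 25 CpG and the Kcnk5 window (chr14:20181733-20182032, minus strand) had 26. The Kcnk12 window (chr17:87797945-87798244, minus strand) had 20 CpG. By contrast there were 3 CpG in the Kcnf1 window (chr12:17176839-17177138, minus strand), 4 in the Kcna7 window (chr7:45405710-45406009, plus strand) and 6 in the Kcnn4 window (chr7:24370013-24370312, plus strand). The Kcna7 peak covered its window in Q7SST and DKI, reached the edge of it in Q111SST and lay before it in the other 3 lists. The Kcnf1 peak lay downstream of its window and only touched the edge. The Kcnf1 window therefore does not give the base composition under its peak, nor does the Kcna7 window in lists other than Q7SST and DKI.

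Few potassium channel genes were marked. In Q7SST, 34 of 93 were marked (36.6%, 95% Wilson interval 27.5 to 46.7), against 59.9% of all protein-coding genes. In Q111SST, 26 were marked (28.0%, 19.9 to 37.8), against 58.4% of all genes. The counts with the compounds were 15 with cyproheptadine (16.1%, upper bound 24.9, all genes 55.4%), 24 with loxapine (25.8%, upper bound 35.5, all genes 58.1%), 18 with DKI (19.4%, upper bound 28.5, all genes 55.8%) and 25 with meclizine (26.9%, upper bound 36.7, all genes 58.6%). In each of the 6 lists the interval of the members lay below the share of all genes. These intervals hold counting error alone, and a peak can be shared with another gene.

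Counted over the lists together, 14 members were marked in all 6 lists, 23 in some of them and 56 in none. Marked in all lists were 15.1% of the members against 53.5% of all genes, and in no list 60.2% against 37.0%. Marked in exactly 1 list were 10 members, which is 10.8% against 3.70% of all genes. The share of all genes marked moved little between lists, from 55.4% to 59.9%, while that of the potassium channel genes ran from 16.1% to 36.6%.

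**Figure D1:**
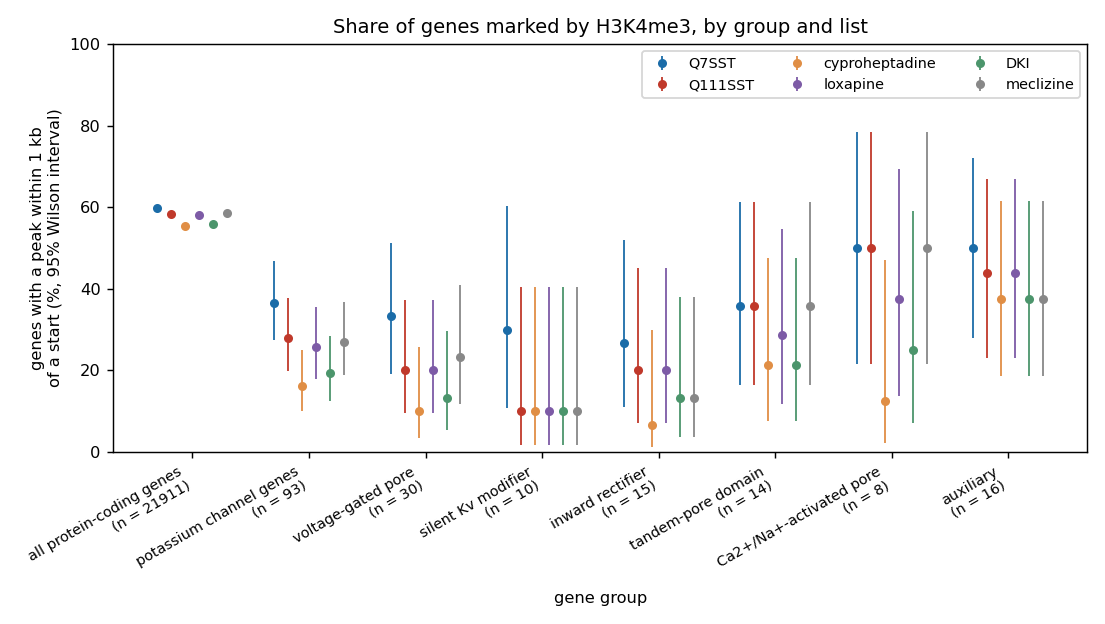
The share of genes with a peak within 1 kb of a start (vertical axis, %) in each of the 6 lists (colours), for all protein-coding genes, for the 93 potassium channel genes and for their 6 classes (horizontal axis). Points are shares and bars are 95% Wilson intervals. All protein-coding genes sit between 55.4% and 59.9%, and the potassium channel genes between 16.1% and 36.6%, with Q7SST highest.

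The 6 classes differed in how many members were marked, although with 8 to 30 members each their intervals overlap. The auxiliary subunits, which change the gating or delivery of a pore, had 8, 7, 6, 7, 6 and 6 of 16 genes marked. The calcium- or sodium-activated pores had 4, 4, 1, 3, 2 and 4 of 8, and the tandem-pore leak channels 5, 5, 3, 4, 3 and 5 of 14. The voltage-gated pores, the largest class, had 10, 6, 3, 6, 4 and 7 of 30. The inward rectifiers had 4, 3, 1, 3, 2 and 2 of 15, and the silent modifiers, which conduct only when joined to other voltage-gated subunits, had 3, 1, 1, 1, 1 and 1 of 10. In every class the counts with cyproheptadine, loxapine and DKI were no higher than that in Q111SST, and meclizine exceeded it in the voltage-gated pores alone.

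Among the auxiliary subunits the Kcnab family, the cytoplasmic beta subunits of voltage-gated channels, was the family with every member marked in every list. This went with the setting. With basic transcripts Kcnab1 was marked in Q7SST and not in Q111SST, and the same held for Kcnab3 when the peak had to cover the start. Kcnab2 stood at percentiles 89.8, 93.3, 94.1, 89.4, 95.2 and 91.6, and its peak of 1047 to 1525 bp at the start on chromosome 4 also lay within 1 kb of a start of Nphp4, so the mark cannot be assigned to either gene alone. Kcnab3 stood at percentiles 80.1, 79.7, 71.5, 74.4, 89.7 and 81.9. In Q111SST and with loxapine its peak ran on for 3405 and 3779 bp and also reached starts of Cntrob and Trappc1, while in the other 4 lists a separate peak of 505 to 832 bp stood at the Kcnab3 start. The Q111SST width of Kcnab3 is therefore that of merged peaks.

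Kcnab1, the remaining beta subunit, was marked at starts 165664 bp apart in Q111SST. It stood at percentiles 56.1, 66.1, 46.5, 71.7, 80.0 and 76.9. Its strongest peak was at a start inside the gene in Q7SST, Q111SST, DKI and meclizine (339 bp wide in Q111SST, chr3:65352585-65352923). With cyproheptadine and loxapine it was at another start, near chr3:65187559-65188519, which also lies inside the gene. The order of the separate starts thus changed between lists.

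The KChIP subunits (Kcnip genes) bind calcium and join the channels of the Kcnd family. Kcnip3, whose product is also known as the transcriptional repressor DREAM, stood at percentiles 67.2, 71.1, 76.0, 79.4, 68.6 and 66.2 and varied little. Kcnip2 stood at 52.5 in Q7SST, 3.23 in Q111SST and 22.7 with loxapine and was unmarked in the other 3 lists, and Kcnip1 was marked in Q7SST alone at percentile 26.8. Kcne3, a single-span partner of Kcnq channels, stood at 46.4, 63.1, 61.7, 55.9, 57.5 and 71.4. Kcnmb4, the neuronal beta subunit of the large-conductance calcium-activated channel, was marked in all lists at 51.7, 40.6, 39.2, 14.0, 1.16 and 14.0, which is lower with each compound than in both vehicle lists, though with cyproheptadine by little. Kcnma1, the pore gene that Kcnmb4 serves, was unmarked in every list at all of its 14 starts.

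**Figure D2:**
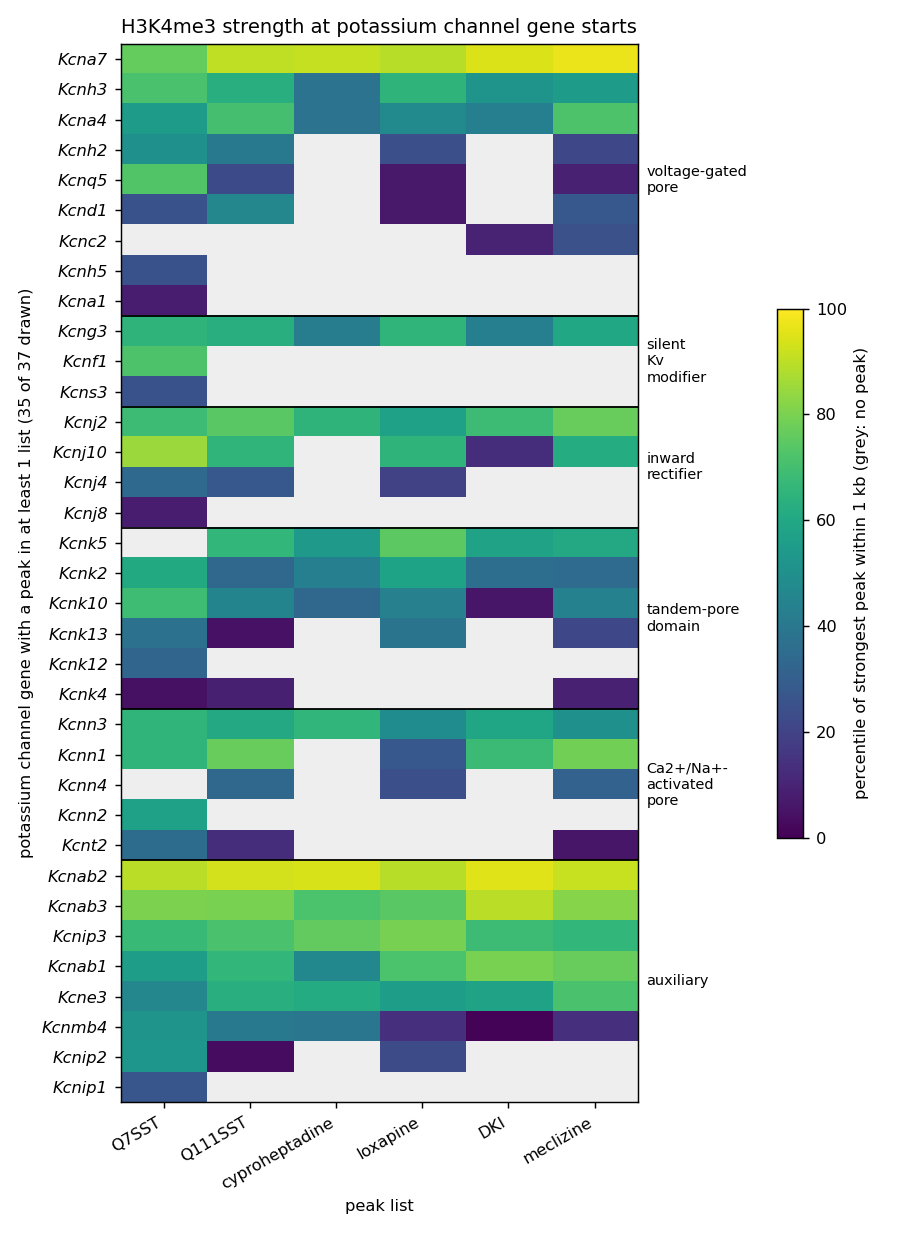
The percentile of the strongest peak within 1 kb of a start (colour, 0 to 100) for 35 of the 37 potassium channel genes marked in at least 1 list (rows, grouped by class) in the 6 lists (columns). Grey means no peak. Kcna7 and Kcnab2 are strong in every list, 8 of the genes drawn have a peak in Q7SST and in no other list, and the weakest cells of Q111SST are often grey with cyproheptadine and DKI.

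Among the voltage-gated pores, Kcna7, a channel better known from heart and skeletal muscle, carried the strongest mark. Its percentiles were 76.5, 90.5, 91.1, 89.2, 94.6 and 97.1, so Q7SST was lowest, and its scores were 102, 141, 115, 133, 142 and 212. The peak was short, 503 bp in Q111SST (chr7:45405236-45405738) and 241 to 1018 bp over the lists. With cyproheptadine, loxapine and meclizine it ended 149, 143 and 83 bp before the start rather than on it.

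Kcna4, which carries a rapidly inactivating A-type current, stood at 54.7, 70.7, 37.9, 47.7, 43.0 and 72.2. It was highest in Q111SST and meclizine and lowest with cyproheptadine and DKI. Kcnh3, an ether-a-go-go family channel of forebrain neurons, stood at 71.1, 63.1, 37.9, 65.1, 51.7 and 54.9, and Kcnh2, the gene of the cardiac rapid delayed rectifier, at 50.0 in Q7SST, 40.6 in Q111SST, 24.3 with loxapine and 21.8 with meclizine. Kcnh2 had no peak within 1 kb with cyproheptadine or DKI, where the nearest peaks lay 1445 and 1538 bp away. Kcnd1, a pore of the A-type current, stood at 25.2, 46.2, 6.65 and 27.6 in Q7SST, Q111SST, loxapine and meclizine and was unmarked with cyproheptadine and DKI.

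Kcnq5, a subunit of the M current that restrains repeated firing, had the largest percentile difference between the vehicle lists. It stood at 72.7 in Q7SST with a peak of 2468 bp across the start and at 22.4 in Q111SST with a peak of 647 bp that began 289 bp downstream of the nearest start. With loxapine and meclizine it stood at 6.65 and 9.13, and it was unmarked with cyproheptadine and DKI. Kcnc2, a fast delayed rectifier of interneurons, was the member marked only in lists of mutant cells with a compound, at 9.61 with DKI and 24.9 with meclizine. Both of its peaks were weak and they did not overlap (360 bp at chr10:112315106-112315465 and 234 bp at chr10:112315536-112315769).

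Of the inward rectifiers, Kcnj2, whose product is the strong inward rectifier of striatal neurons, heart and muscle, was the member marked in all lists. Its percentiles were 68.6, 74.3, 65.2, 57.3, 68.6 and 76.9. Its domain was broad, 1842, 2889, 2586, 3612, 2698 and 2691 bp, with the largest mean width of all members (2720 bp). The upstream edge hardly moved, between positions 111064847 and 111064871 of chromosome 11, while the downstream edge lay at 111066692 in Q7SST and at 111067452 or beyond in the other 5 lists.

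Kcnj10, the inward rectifier with which glia take up potassium, stood at 85.0 in Q7SST, 65.6 in Q111SST, 65.1 with loxapine, 62.1 with meclizine and 13.2 with DKI, and it was unmarked with cyproheptadine. Of the 8 glial markers, Gfap had no peak in Q7SST and had one in the other 5 lists, Aldh1l1 was unmarked with cyproheptadine and DKI, Aif1 was marked in both vehicle lists alone, Mbp was marked with meclizine alone, and Aqp4, Cx3cr1, Mog and Olig2 were unmarked in every list. Their part in the values of Kcnj10 was not tested. Kcnj4, another strong inward rectifier, stood at 34.0, 27.6 and 19.4 in Q7SST, Q111SST and loxapine, and Kcnj8, the pore of vascular ATP-sensitive channels, at 7.83 in Q7SST alone. The other 11 inward rectifiers, including the G protein-gated genes Kcnj3, Kcnj5, Kcnj6 and Kcnj9, were unmarked in every list.

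Of the tandem-pore leak channels, Kcnk2 and Kcnk10, which are related channels opened by stretch and lipids, were marked in all lists. Kcnk2 stood at 60.8, 33.9, 43.1, 58.1, 36.1 and 34.8, highest in Q7SST and loxapine. Kcnk10 stood at 69.0, 45.2, 33.5, 43.7, 5.96 and 43.8, highest in Q7SST and lowest with DKI. Kcnk13, a halothane-inhibited leak channel, stood at 37.8, 4.91, 38.3 and 21.8 in Q7SST, Q111SST, loxapine and meclizine. Kcnk4, a mechanosensitive relative of Kcnk2, was near the floor at 4.60, 8.76 and 9.13 in Q7SST, Q111SST and meclizine.

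Kcnk5, an acid-sensitive leak channel, ran the other way. It had no peak in Q7SST, where the nearest was 7652 bp away, and stood at 66.1, 54.2, 74.8, 57.5 and 60.5 in the 5 lists of mutant cells. Its peaks were 1186 to 1640 bp wide and lay on or within 14 bp of the start whose CpG-rich promoter is printed above. All 5 of those lists thus held a mid-strength peak that the wild-type list lacked.

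Of the calcium- or sodium-activated pores, Kcnn3, a small-conductance calcium-activated channel, was marked in all lists at 65.5, 60.2, 65.8, 48.6, 59.1 and 50.1. In Q7SST its peak of 2750 bp covered the start, and in the other 5 lists it began 739 to 930 bp inside the gene. Kcnn4, the intermediate-conductance channel of blood and epithelial cells, was unmarked in Q7SST and stood at 33.9 in Q111SST, 24.3 with loxapine and 31.4 with meclizine. With a window of 5 kb Kcnn4 was marked in Q7SST too. Kcnt2, a sodium-activated channel, stood at 35.2, 12.9 and 5.91 in Q7SST, Q111SST and meclizine.

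Kcnn1, a further small-conductance channel, shows how far a call can rest on the window. It stood at 65.5, 76.9, 27.4, 68.0 and 78.9 in Q7SST, Q111SST, loxapine, DKI and meclizine and was called unmarked with cyproheptadine. There, however, a peak with a score of 101 ended 1045 bp from the start, and peaks with scores of 135 in Q7SST and 92 with loxapine lay outside the window as well, so the percentiles of those lists come from weaker peaks. With loxapine the percentile fell by 49.5 points from Q111SST. The values of Kcnn1 thus turned on where the edge of a peak fell.

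**Figure D3:**
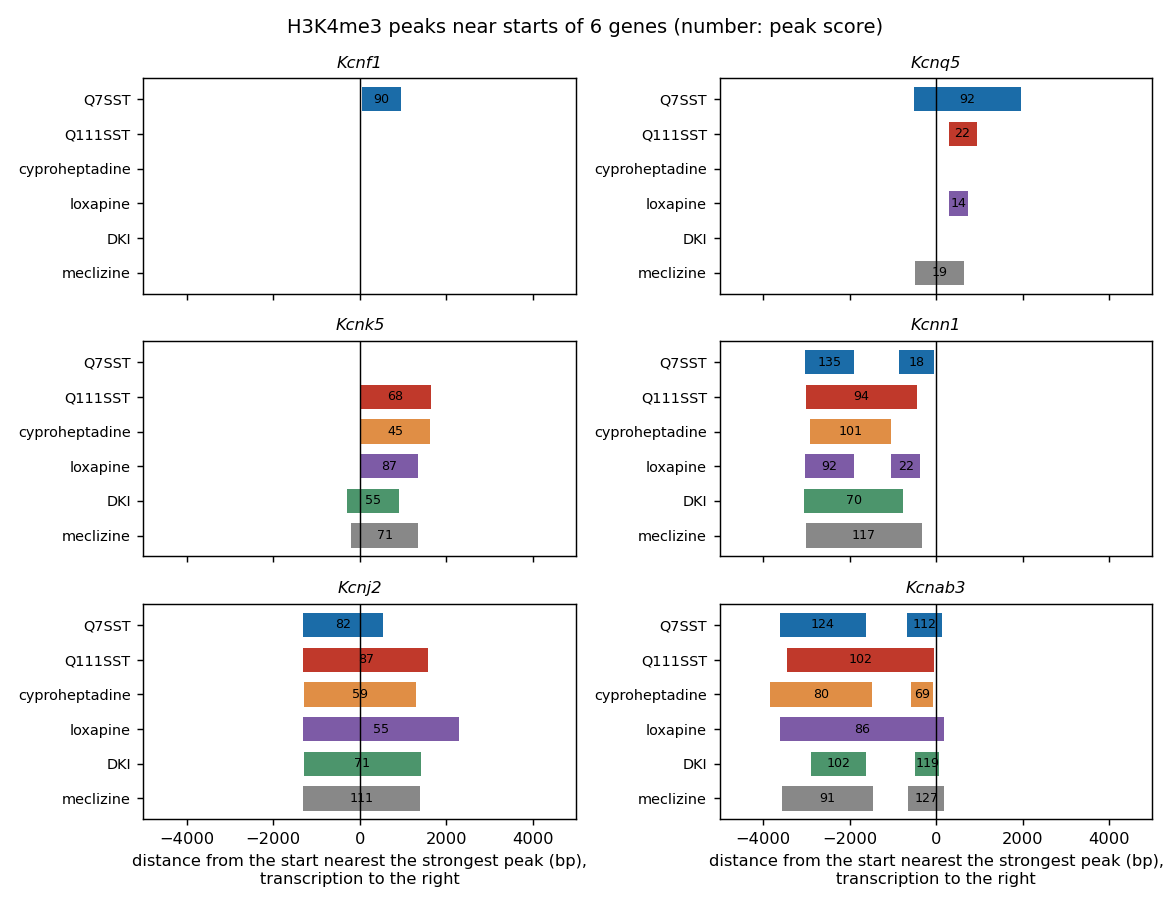
Peaks within 5 kb of the start nearest the strongest peak of Kcnf1, Kcnq5, Kcnk5, Kcnn1, Kcnj2 and Kcnab3, by list. The horizontal axis is the distance from that start in bp, with transcription to the right and the start at 0, and the number in each bar is the deposited score. Kcnf1 has a bar in Q7SST alone, Kcnk5 has none in Q7SST, the Kcnn1 peak with cyproheptadine stops 1045 bp short of the start, and the Kcnab3 peak joins its neighbour in Q111SST and loxapine.

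The first comparison was of the vehicle lists of the wild-type and the mutant line. Marked in Q7SST and not in Q111SST were 10 members (10.8%, 5.95 to 18.7), while 3.60% of all genes were gained in that direction. Marked in Q111SST and not in Q7SST were 2 members (2.15%, 0.592 to 7.51), near the 2.08% of all genes. Since 67 of the 93 members were unmarked in Q111SST and so free to be gained, the share was also taken, after the data were seen, over those genes alone, where it was 14.9% of members (8.31 to 25.3) against 8.64% of all genes unmarked in Q111SST, a value inside the interval near its lower bound. Whether it fell inside depended on the setting. The share of all genes lay below the interval of the members with a window of 5 kb (10.5% against 12.7 to 32.6), with equally long lists (8.28% against 8.75 to 25.3) and with basic transcripts (8.19% against 9.14 to 26.3), and inside it when the peak had to cover the start (8.63% against 8.28 to 24.1). Taken in the same way over genes marked in Q111SST, the losses in Q7SST were 7.69% of members against 3.56% of all genes. With lists of equal size the counts gained and lost were 11 and 2. Each line is a single list here, so the line and the library cannot be told apart.

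The 10 members marked in Q7SST came from all 6 classes. Among them were the voltage-gated pores Kcna1 and Kcnh5, the silent modifiers Kcnf1 and Kcns3, the inward rectifier Kcnj8, the leak channel Kcnk12, the small-conductance calcium-activated channel Kcnn2 and the KChIP Kcnip1. None of the 10 was marked in a compound list either, as held for 77.4% of the 788 genes gained in Q7SST. In Q111SST the nearest peak lay over 5 kb from the starts of all 10, as for 618 of the 788 gained genes, so none of these calls rested on a peak just outside the window.

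Most of these peaks were weak. Kcnf1 was the strongest, with a score of 90 at percentile 71.9 and a peak of 914 bp (chr12:17175926-17176839) that began 49 bp inside its single exon. Kcnn2, which had peaks near starts 291294 bp apart, followed at percentile 57.4. Kcnk12 stood at 32.6, Kcnip1 at 26.8, and Kcnh5 and Kcns3 both at 25.2. Kcna1 and Kcnj8, both at 7.83, were close to the weak end of the list. The median percentile of the 10 was 25.2, against 32.6 for all genes gained in Q7SST.

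At the pooled median score of 47, a threshold that leaves the stronger peaks, 8 members were marked in Q7SST and not in Q111SST, against 3.55% of all genes. Only Kcnf1 and Kcnn2 were among the 10 described above, and the others were Kcnh2, Kcnip2, Kcnk2, Kcnk10, Kcnmb4 and Kcnq5, whose Q111SST peaks scored below 47. Over genes unmarked in Q111SST at this threshold, the share was 10.1% of members (5.22 to 18.7) against 7.41% of all genes, which lies inside the interval.

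Of the 24 members marked in both vehicle lists, 7 stood at least 15 percentile points higher in Q7SST, which 5.44% of all genes marked in both did. These were Kcnq5 (50.3 points higher), Kcnip2 (49.3), Kcnk13 (32.9), Kcnk2 (26.9), Kcnk10 (23.9), Kcnt2 (22.4) and Kcnj10 (19.4). At least 15 points lower in Q7SST were 3 members, a fall that 6.49% of all genes showed, namely Kcnd1 (25.2 against 46.2), Kcne3 (46.4 against 63.1) and Kcna4 (54.7 against 70.7). The excess of higher over lower members went with the setting. There were 3 higher and 3 lower at scores of 47 or more, and 4 and 3 when the peak had to cover the start. A window of 5 kb gave 7 and 6, equally long lists 5 and 4, and shifts of at least 10 points 8 and 6. Merged peaks gave 7 and 3, basic transcripts 6 and 3, and shifts of at least 25 points 4 and 0. These are counts of members alone, without the shares of all genes at those settings. The median shift of the members was 3.86 points and that of all genes -1.04. Of the 26 members marked in Q111SST, 24 lay below the median percentile of all marked genes, and the part of peak strength in these shifts was not tested.

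**Figure D4:**
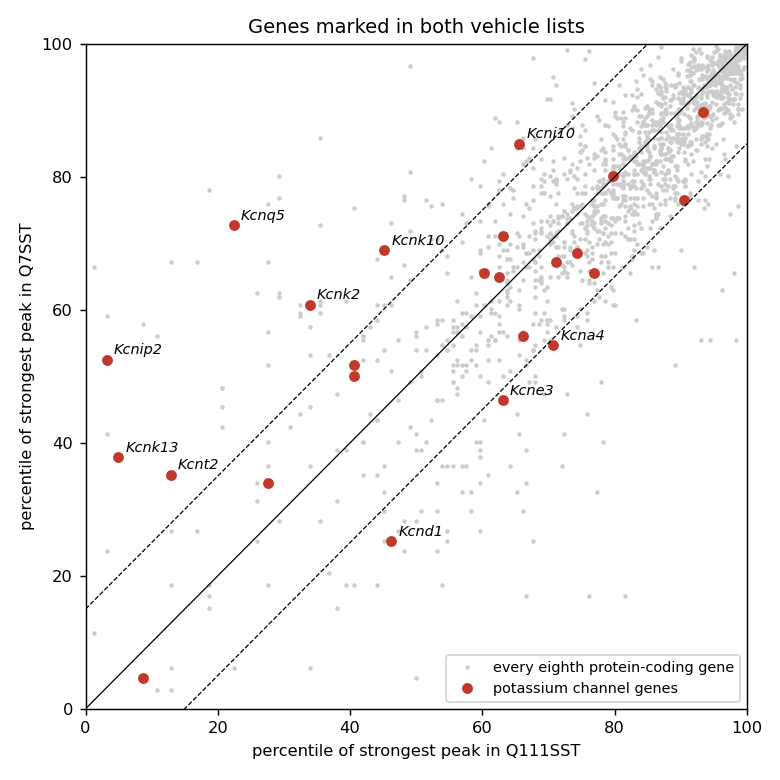
The percentile of the strongest peak in Q7SST (vertical axis) against that in Q111SST (horizontal axis) for the 24 potassium channel genes marked in both lists (red) and for every eighth protein-coding gene marked in both (grey). The solid line is equality and the dashed lines are 15 points to either side. Named genes lie beyond 15 points, 7 above and 3 below.

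Neighbours on a chromosome were looked at because 3 of the 10 members marked in Q7SST alone, Kcnf1, Kcnh5 and Kcns3, lie on chromosome 12 together with Kcnk10 and Kcnk13, both stronger in Q7SST. On chromosome 12, 5.44% of the 643 genes were gained in Q7SST, against 3.54% of genes elsewhere, and the median shift was 1.59 points against -1.11. Without the 5 members on this chromosome, 7 of 88 members were gained and 2 were lost. The part of copy number or of the chromosome in these values was not tested.

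More neuronal markers were marked in Q7SST than in Q111SST too. Of the 9 markers of mature striatal neurons, 5 were marked in Q7SST and 3 in Q111SST, with Syp and Tac1 marked in Q7SST alone, and of the 10 progenitor markers Bcl11b and Gsx2 were among those marked in Q7SST alone, while Sox2 was marked in the 5 lists of mutant cells alone. Their part in the result was not tested.

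The compounds were compared with Q111SST, and since all of them share that list, their losses are not independent of each other. With cyproheptadine, 11 of the 26 members marked in Q111SST were unmarked (11.8% of the 93, 3.33% of all genes) and 0 were gained (0.306% of all genes). With DKI, 9 were lost (9.68%, 2.88% of all genes) and 1, Kcnc2, was gained (1.08%, 0.269% of all genes). With loxapine, 2 were lost (2.15%, 1.24% of all genes) and 0 gained (1.01% of all genes), and with meclizine 2 were lost (2.15%, 0.799% of all genes) and 1, again Kcnc2, was gained (1.08%, 1.02% of all genes). Taken over marked genes, the losses were 42.3% of members against 5.70% of all genes with cyproheptadine, 34.6% against 4.94% with DKI, 7.69% against 2.12% with loxapine and 7.69% against 1.37% with meclizine.

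The members lost with cyproheptadine were Kcnd1, Kcnh2, Kcnq5, Kcnj4, Kcnj10, Kcnk4, Kcnk13, Kcnn1, Kcnn4, Kcnt2 and Kcnip2. With DKI they were Kcnd1, Kcnh2, Kcnq5, Kcnj4, Kcnk4, Kcnk13, Kcnn4, Kcnt2 and Kcnip2. With loxapine Kcnk4 and Kcnt2 were lost, and with meclizine Kcnip2 and Kcnj4. No member of the Kcnab family was lost with any compound.

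The cyproheptadine and DKI lists were the shortest, with 33721 and 30758 peaks, and the losses fell on weak peaks. All 5 members at or below percentile 25 of Q111SST were lost with cyproheptadine, as were 79.5% of all genes in that range, and all 5 were lost with DKI, against 70.3%. Of the 7 members between percentiles 25 and 50, 4 were lost with cyproheptadine (34.4% of all genes) and 4 with DKI (29.7%). Of the 10 members between percentiles 50 and 75, Kcnj10 was lost with cyproheptadine (2.92% of all genes) and 0 with DKI (2.25%). Of the 4 members above percentile 75, Kcnn1 was lost with cyproheptadine (0.105% of all genes), where its peak lay just outside the window, and 0 were lost with DKI (0.129%). With lists of equal size, 6 members were lost with cyproheptadine, 4 with DKI and 6 with loxapine, so their order by members lost was not kept. At that size 56.4% of all genes were marked in Q111SST, and 54.8%, 55.8% and 55.1% with cyproheptadine, DKI and loxapine. The share of all genes lost at that size is not given here.

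Among members marked in both Q111SST and a compound list, more shifted downward than upward with each compound. The same held for all genes marked in both lists, whose shares are the percentages in brackets below. For the members the direction depended on the peaks used. At scores of 47 or more, 2 were higher and 1 lower with loxapine, 2 higher and 0 lower with meclizine, 2 higher and 2 lower with DKI, and 0 higher and 2 lower with cyproheptadine. At least 15 points lower with cyproheptadine were 4 of 15 members (14.1% of all genes), namely Kcna4, Kcnab1, Kcng3 and Kcnh3, and 0 were higher (1.49%). With DKI 5 of 17 were lower (24.9%), namely Kcnj10, Kcnmb4, Kcnk10, Kcna4 and Kcng3, and 0 were higher (1.61%). With loxapine 7 of 24 were lower (4.35%), namely Kcnn1, Kcnd1, Kcnmb4, Kcna4, Kcnj2, Kcnh2 and Kcnq5, and 3 were higher (3.05%), namely Kcnk13, Kcnk2 and Kcnip2. With meclizine 3 of 24 were lower (3.71%), namely Kcnmb4, Kcnh2 and Kcnd1, and 1, Kcnk13, was higher (2.18%). With DKI the median shift of the members, -5.65 points, was near that of all genes, -6.57, while with cyproheptadine, loxapine and meclizine it was -8.21, -4.64 and -2.09 against -3.74, -0.352 and -1.54.

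Kcnab2 hardly shifted with any compound and stayed between -3.95 and 1.85 points of Q111SST in the 4 compound lists. The silent modifier Kcng3 moved by 3.14 with loxapine and -2.58 with meclizine but by -20.7 with cyproheptadine and -19.5 with DKI. The peak of Kcng3 lay 728 to 918 bp before its start in all 6 lists, so a narrower window would not count it.

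Marked members were weaker by the median than all marked genes in each list, and their median width was lower too. Their median percentiles were 53.6, 61.3, 54.2, 52.2, 57.5 and 54.9, against 80.4, 82.6, 79.5, 83.0, 76.3 and 80.3 for all marked genes. Below the median of all marked genes were 32 of 34, 24 of 26, 13 of 15, 22 of 24, 14 of 18 and 22 of 25 members. Median widths were 1436, 972, 861, 1110, 729 and 942 bp, against 1834, 1936, 1678, 1865, 1569 and 1782 bp. The 95% interval of the members' median width, from order statistics, held the median of all marked genes in Q7SST (763 to 1842 bp) and with loxapine (491 to 1995 bp), and lay below it in the other 4 lists. The widest members by mean width were Kcnj2 (2720 bp), Kcnab1 (2506 bp), Kcnn3 (2077 bp), Kcnn1 (2063 bp) and Kcnab3 (1652 bp), of which Kcnab1 and Kcnn1 summed peaks at separate starts. The strongest peak covered a start in 15 of the 26 members marked in Q111SST.

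The 56 members marked in no list were mostly far from any peak. Their nearest peak in any list lay at a median of 17051 bp from a start, 35 were over 10 kb away and 11 were within 5 kb. Just outside the window were Kcnk6 (1088 bp, loxapine), Kcnh8 (1161 bp), Kcnd2 (1231 bp), Kcnd3 (1303 bp) and Kcnj14 (1320 bp), the last 4 in Q7SST. Kcnh4 had its nearest peak 1470 to 1646 bp from a start in each of the 6 lists. Just inside the window were the peaks of Kcnj4 in Q111SST (996 bp) and of Kcnn3 with loxapine (930 bp). For 20 of the 56, a peak lay somewhere between the ends of the gene.

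Marking went with the CpG content of the starts less in the members than in all genes. The CpG ratio, the number of CpG divided by that expected from the C and G content, was computed in windows of 300 bases at every annotated start, and each gene was classed by its most CpG-rich start. Of the 93 members 57 had a high ratio of at least 0.6 (61.3%, 56.6% of all genes), 20 an intermediate one and 16 a low one under 0.35. In the high class 22 of 57 members were marked in Q7SST (38.6%) and 16 in Q111SST (28.1%), while 89.6% and 87.1% of all genes of that class were. In the intermediate class the members reached 50.0% and 45.0%, near the 44.4% and 42.5% of all genes, and in the low class 12.5% and 6.25% against 8.75% and 9.24%. The gap between the members and all genes was thus widest in the CpG-rich class. Members marked in no list had a median ratio of 0.702, against 0.245 for all genes marked in no list. When only the 5′ end of each gene was used, a choice made after the data were seen, the high class held 33 members, of which 36.4% and 30.3% were marked against 91.4% and 89.2% of all genes. In that setting the intermediate members stood at 55.6% and 37.0% against 63.0% and 60.4% of all genes, and the low class stood at 21.2% and 18.2% against 21.6% and 21.4%.

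**Figure D5:**
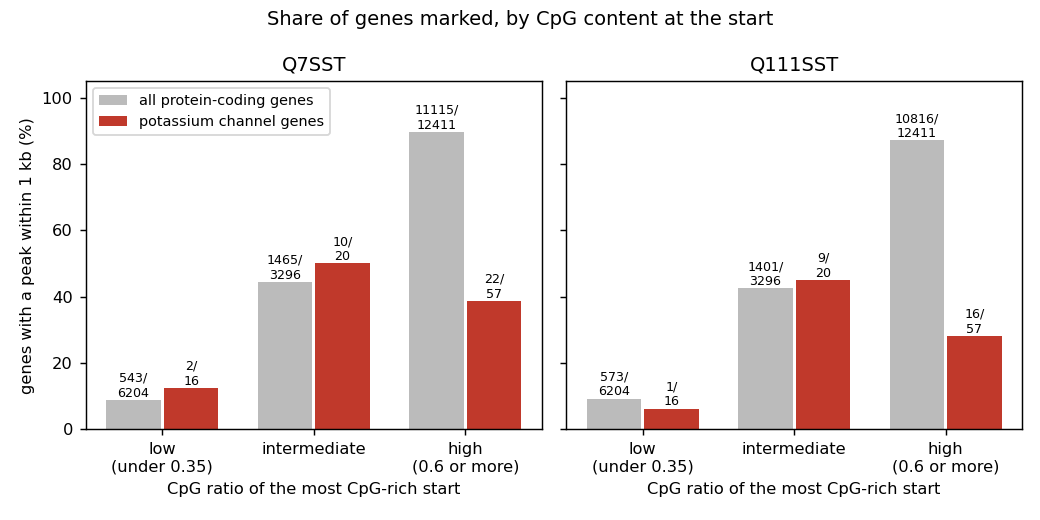
The share of genes marked (vertical axis, %) in Q7SST (left) and Q111SST (right) by the CpG ratio of the most CpG-rich start (horizontal axis), for all protein-coding genes (grey) and potassium channel genes (red). Numbers above the bars are marked genes over genes in the class. Among CpG-rich genes 22 of 57 potassium channel genes are marked in Q7SST and 16 of 57 in Q111SST, against 11115 and 10816 of 12411 for all genes.

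Short motifs were counted in the same windows, on both strands. The letters GGGCGG were in 44.7% of the 333 windows of members and in 38.5% of the 93504 windows of all genes, and the letters TATAAA in 6.01% and 11.5%. REST, a repressor that keeps neuronal genes silent outside neurons, binds an element made of the motifs CAGCACC and GGACAG. These letters with 2 bases between them were in 0 of the 333 windows and in 0.0310% of all windows. Within 5 kb of a start, a distance chosen after the data were seen, 4 of 93 members held them (4.30%), against 211 of 21911 genes (0.963%). The sites are shown because they are exact copies of both motifs beside channel genes. They are 21 bases of GRCm38 in the sense of the element, with both motifs in capitals.
Kcnab2: ttCAGCACCcaGGACAGctcc
Kcnh4: ttCAGCACCctGGACAGccgc
Kcnk12: gtCAGCACCgcGGACAGcgca
Kcnt1: ctCAGCACCgcGGACAGctcc
The Kcnab2 site (chr4:152424539-152424559) and the Kcnh4 site (chr11:100759007-100759027) lie in introns, the Kcnk12 site (chr17:87798584-87798604) lies 590 bp upstream of its start, and the Kcnt1 site (chr2:25864072-25864092) lies in an intron 104 bp from a start. Kcnab2 was marked in all lists, Kcnk12 in Q7SST alone, and Kcnh4 and Kcnt1 in none. The Kcnab2 site lies 1286 bp from its nearest start. The Kcnab2 promoter printed above, which a peak overlapped in every list, belongs to another start (chr4:152477500-152477799). A match in letters is not a measure of binding. The start of Rest itself was marked in every list.

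Other channel and receptor genes gave a scale for these shares. Sodium channel genes were marked for 3, 4, 5, 5, 4 and 4 of 14 genes, calcium channel genes for 14, 11, 9, 10, 8 and 11 of 26, and glutamate and GABA receptor genes for 15, 6, 5, 7, 5 and 6 of 45. Q7SST was highest for calcium channels and for receptors, as it was for potassium channels, and lowest for sodium channels. The partners of potassium channels, a mixed list of scaffolds, regulators and pacemaker channels, were marked for 13, 11, 10, 11, 10 and 11 of 23 genes. Within it the calmodulin genes Calm2 and Calm3, the ankyrins Ank2 and Ank3, Akap9 and the pacemaker channel Hcn4 were marked in all lists, while Dpp6, Dpp10, Abcc8 and Abcc9, which encode membrane partners of the Kcnd and ATP-sensitive channels, were unmarked in every list.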

How the data were processed

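H3K4me3 ChIP-Seq of MNase-digested chromatin gave 6 peak lists with 227418 peaks, 1 per condition, and groups were taken from the labels. The deposited lists give for each peak its position and a score, a whole number made by the authors, with a lowest value of 10 in each list. The submitters' processing notes name Trimmomatic 0.36, Bowtie2, SAMtools 1.3, MACS2 and build mm10. Their settings, the scale of the score, any input control and whether replicates were made and pooled are not given in the sources used here. Scores were therefore compared within a list, by percentile, apart from 1 alternative with a common threshold. Read depth is unknown, which limits how far a missing peak can be read.

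Peak ends fitted within all 21 chromosomes of GRCm38. Starts were those of all GENCODE M21 transcripts of 21911 protein-coding genes, the mitochondrial genome left out. Peaks within 1 kb of a start were joined to genes, and the share of genes marked carries a 95% Wilson interval for counting error. The members and gene lists were chosen with earlier results of these data known. Genes named were those whose marking differed between Q111SST and another list, the strongest of each family, the 5 widest, the 5 per direction with the largest percentile difference between the vehicle lists, those with peaks at starts over 5 kb apart, and the 5 unmarked members nearest to a peak. Other members were named after their values were seen, and some genes are not reported here. RefSeq promoters were found for 68 of 93 members, so CpG and motif shares were computed from the genome at 333 starts, which exist for all 93. The step that joins peaks to genes was tested on simulated data, where 120 of 120 planted peaks over 200 genes were recovered and 0 were wrong. The tools were pandas 2.3.3, matplotlib 3.10.9, scipy 1.17.1 and numpy 2.4.6 under Python 3.11.15. Alternatives were other windows, a common score threshold, lists of equal size, merged peaks, basic transcripts, other sizes of a shift and the width of the strongest peak.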

Additional observations from a re-analysis of the deposited data

How the results depend on the processing

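No paired analysis was possible because there was 1 list for a condition, and for the same reason no replicate could be left out. Over all alternatives, 226 of the values stayed within 1.5 times the reported count, or within the interval of the reported median, and 66 moved further. The cause was not tested, apart from the alternatives that by construction leave fewer peaks. Members marked in Q7SST and not in Q111SST numbered 7 to 13 over the alternatives.

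When a peak had to cover the start itself, which leaves fewer peaks, 17 members were marked in Q111SST, 8 with cyproheptadine, 15 with loxapine and 16 with meclizine. Then 4 were lost in Q7SST, 1 was gained with loxapine, 2 with DKI and 2 with meclizine. Shifts upward numbered 4 in Q7SST, 1 with loxapine and 0 with meclizine, and shifts downward 2 with cyproheptadine, 4 with loxapine and 3 with DKI. With a window of 5 kb, 23 members were marked with cyproheptadine, 4 were gained and 1 was lost with loxapine, 2 were gained with meclizine, 1 shifted upward with cyproheptadine, and 6 in Q7SST and 9 with DKI shifted downward.

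At scores of 47 or more, which leaves fewer peaks, Q7SST had 20 marked members, Q111SST 14, cyproheptadine 7, loxapine 12, DKI 11 and meclizine 14. The median percentile was then 33.2 in Q111SST and 35.9 with cyproheptadine, and the median width 1636 bp in Q111SST and 1457 bp with meclizine. Lost were 7 members with cyproheptadine, 3 with DKI and 0 with meclizine. Gained were 1 with loxapine and 0 with either of DKI and meclizine. Shifts upward numbered 3 in Q7SST, 2 with DKI and 2 with meclizine, and downward 2 with cyproheptadine, 2 with DKI, 1 with loxapine and 0 with meclizine.

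With lists of equal size (the strongest 30758 peaks), 6 members were lost with cyproheptadine, 6 with loxapine and 4 with DKI, and 1 was gained with loxapine and 2 with meclizine. Shifts upward numbered 1 with cyproheptadine, 1 with loxapine and 3 with DKI, and downward 2 with cyproheptadine and 4 with loxapine. With shifts of at least 10 points, 6 members were lower in Q7SST, 1 was higher with DKI, 2 were higher and 5 lower with meclizine. With shifts of at least 25 points, 4 members were higher and 0 lower in Q7SST, 2 were lower with cyproheptadine, 1 was higher and 3 lower with loxapine, and 0 were higher and 1 lower with meclizine. Without the 5 members on chromosome 12, an alternative added after the data were seen, 0 were higher with meclizine.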
